A study of Mus musculus with 65 samples.

Results

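The 8 genes described here make or govern the synthesis of cholesterol: Hmgcs1, Idi1, Fdps, Fdft1, Sqle and Lss encode enzymes of the pathway, Insig1 an inhibitor of its control and Srebf2 its main transcription factor. They were chosen by name from the 15020 gene symbols of the deposited gene tables. Each was read from its transcript with the highest mean, and all 8 were present in all 4 gene tables and passed the filter on low values (a mean of at least 10 normalised reads). Hmgcs1 and Fdps were listed with 2 transcripts each, whose values were identical, and each of the other 6 genes had 1.

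Cholesterol is built from acetyl-CoA through mevalonate, the isoprenoids and squalene, and the first sterol is closed from squalene epoxide. The transcription factor SREBP-2, the product of Srebf2, is held in the endoplasmic reticulum by Scap and Insig while sterols are plentiful. When sterols fall it moves to the Golgi, is cut by proteases and enters the nucleus, where it activates the genes of the pathway, genes of cholesterol uptake and Srebf2 itself. Serum lipoproteins are a source of cholesterol for cultured cells, so that a change of medium is a setting in which this pathway is commonly examined.

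Nascent transcription was measured by PRO-seq, a run-on assay that counts RNA polymerases engaged on genes, in 65 samples of MEL cells, a murine erythroleukemia line carrying the corepressor Mtg16 (gene Cbfa2t3) fused to FKBP, a handle for degradation, and to HA. All groups carried this tagged allele in a single line and grew in RPMI medium with 10% heat-inactivated serum. The time course held 3 DMSO libraries, degrader (250 nM dTAGV1) for 15 min, 30 min and 1 h (3 each) and 2 h (2 libraries). Its washout groups had 2 h of degrader and were then washed and put back in complete medium for 30 min (3 libraries), 1 h (2) or 2 h (3). The A485 series held 28 libraries: DMSO, then degrader, 10 µM A485 or the 2 together, each for 15 min, 30 min and 1 h. A485 blocks the histone acetyltransferases p300 and CBP. The LBH589 series held 3 DMSO libraries and 3 each after 30 min and 1 h of 5 nM LBH589, also named panobinostat, which blocks histone deacetylases. The LBH589 washout series held 3 libraries each washed for 30 min or for 1 h, once 2 h of degrader were over. These cells also had LBH589, and its timing is not stated in the labels.

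No group was washed without degrader before it. The change of medium, the return of Mtg16 and the time since the degrader was added therefore cannot be told apart in any washout comparison. The labels do not say that replicates were separate cultures, so p-values measure the spread between these libraries. In the time course, 5 libraries named as degrader for 1 h or 2 h carried A485 in their title and treatment label, and they were read as the library name gives them. The gene table of the time course did not settle which libraries its last columns held, so the comparisons used 2 of the 3 libraries of 30 min washout, 1 of the 2 of 1 h washout and 2 of the 3 of 2 h washout. Libraries held 7453718 to 62384678 reads over the listed transcripts, and each table was tested on its own. Transcription of Cbfa2t3 itself, which marks the response to the degrader, was 23814 ± 4797 normalised reads (SD, n = 3) in DMSO, 169497 ± 8909 (n = 2) after 2 h of degrader and 110051 ± 1289 (n = 2) after 2 h of washout. Of 11 erythroid markers, 8 were in the tables and 7 had a mean of at least 10 in every table. Their summed signal was at least 2138 normalised reads in every library, and the T cell gene Cd8a stayed at or under 2.19. Few markers of other cell types were in the tables: 1 of 3 for T cells, 2 of 3 for B cells, 1 of 3 for macrophages and for fibroblasts and 1 of 2 for hepatocytes. The summed B cell markers reached at most 125, and the single macrophage, fibroblast and hepatocyte genes at most 167, 41.1 and 106. Epithelial markers were in no table.

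A pair of libraries used in the time course stood apart from their groups. Over the 2000 most variable genes, degrader 15 min replicate 2 correlated at a mean r of -0.35 with the other 2 libraries of its group. Its mean r was 0.47 with the 1 library of 1 h washout, 0.37 with 2 h washout and 0.28 with 2 h degrader. Whether it is what its label says was not tested. Degrader 30 min replicate 3 correlated at -0.23 with its own group and at 0.80 with the 2 libraries of 30 min washout. The values below show the same for cholesterol genes. Each count of the time course that the text leads with is therefore also given without these libraries, which enter the fit's estimate of spread even where they are in neither group compared.

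The promoters are shown first, because at 30 min of washout, against DMSO, the enzyme genes Hmgcs1 and Lss fell and the factor gene Srebf2 rose. Sqle also fell. In that comparison 4 of the 8 genes passed beside 48.8% of all genes, close to that share. The calls of Hmgcs1 and Lss were lost in some refits, given below. A RefSeq promoter of build GRCm38.p6 was found for 5 of the 8 genes, and those of Sqle, Fdps and Fdft1 are named only. Those of Insig1 and Idi1, which did not pass in that comparison, are not printed. The 250 bases before the annotated start are printed 5′ to 3′. Capitals mark matches, on either strand, to TCACNCCAC (a core of the sterol regulatory element), CCAAT (bound by NF-Y), GGGCGG (bound by Sp1) and TCACCCCA, the last of which was added after these sequences were seen and overlaps TCACNCCAC.
Hmgcs1, chr13:119690101-119690350, + strand: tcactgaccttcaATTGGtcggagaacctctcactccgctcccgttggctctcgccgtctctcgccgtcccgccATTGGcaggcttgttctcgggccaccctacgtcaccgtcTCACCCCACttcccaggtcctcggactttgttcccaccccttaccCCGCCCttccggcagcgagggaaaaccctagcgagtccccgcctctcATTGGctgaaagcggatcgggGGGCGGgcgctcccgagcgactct
Srebf2, chr15:82147019-82147268, + strand: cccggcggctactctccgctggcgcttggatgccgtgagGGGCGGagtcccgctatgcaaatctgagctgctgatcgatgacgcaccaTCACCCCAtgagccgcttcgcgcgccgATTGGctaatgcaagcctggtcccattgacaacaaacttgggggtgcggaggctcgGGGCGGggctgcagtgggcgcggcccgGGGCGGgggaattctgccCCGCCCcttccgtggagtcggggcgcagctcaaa
Lss, chr10:76531355-76531604, + strand: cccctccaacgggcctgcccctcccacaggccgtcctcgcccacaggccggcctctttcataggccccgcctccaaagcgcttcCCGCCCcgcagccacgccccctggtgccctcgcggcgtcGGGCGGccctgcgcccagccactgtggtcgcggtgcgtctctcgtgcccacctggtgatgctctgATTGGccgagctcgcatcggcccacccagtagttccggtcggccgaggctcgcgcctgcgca

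Of the promoters with a sequence, counted over 300 bases including 50 after the start, 1 of 5 held TCACNCCAC (Hmgcs1, 137 bases before the start), against 1.24% of 32851 promoters of the same length. All 5 held CCAAT, which 37.4% of all promoters hold, and all 5 held GGGCGG, which 35.7% hold. TCACCCCA was found in Hmgcs1 and in Srebf2 (162 bases before the start), and in 1.56% of all promoters. These are matches of letters in a window, not measured binding.

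In untreated cells the 8 genes were transcribed at unequal levels. Per kilobase of gene, in the DMSO libraries of the time course, Insig1 was highest at 155 ± 6.32 normalised reads per kb (SD, n = 3), followed by Fdps at 88.4 ± 3.17 and Srebf2 at 80.7 ± 2.88. Sqle was at 50.3 ± 0.622 and Lss at 44.5 ± 2.19. Hmgcs1 (24.0 ± 1.02) and Fdft1 (22.6 ± 1.70) had overlapping libraries, and Idi1 was lowest at 10.0 ± 2.07. Fdps and Srebf2 did not overlap either, with libraries of 84.7 to 90.5 and 78.2 to 83.9. In the A485 series Srebf2 (68.3 ± 0.954) lay above Fdps (64.5 ± 1.21), and Lss (31.6 to 33.7) and Sqle (32.3 to 32.9) overlapped. In the LBH589 series Srebf2 (62.7 ± 1.64) again lay above Fdps (52.4 ± 3.44), and Lss (42.4 ± 2.62) above Sqle (33.4 ± 1.87). In all 3 tables with DMSO libraries Insig1 had the highest and Idi1 the lowest level per kb. Idi1 rested on few reads, 56.3 to 83.6 per DMSO library of the time course, which limits what can be seen of it.

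At 30 min after washout Srebf2 and a pair of enzyme genes went in opposite directions. Against 2 h of degrader, Srebf2 rose by 0.59 on the log2(value + 1) scale (SE 0.11, adjusted p = 0.0143), while Lss fell by 0.66 (SE 0.19, adjusted p = 0.0239) and Sqle fell by 0.47 (SE 0.13, adjusted p = 0.0195). Thus 3 of the 8 genes passed the test, limma with Benjamini-Hochberg adjustment over all genes and a threshold of 0.05, where 24.3% of the 12720 genes tested did. Without the libraries that stand apart, 6 of the 8 passed, against 51.0% of all genes. The members' median change was -0.14, beside 0.003 for all genes tested. Leaving out either 30 min washout library or either 2 h degrader library gave 0 calls over all genes by limma, down from 3091, and so none among the 8. In these refits 3391 to 3872 genes had an unadjusted p under 0.05.

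Srebf2 gave 4714 and 4587 normalised reads in the 2 libraries of 2 h degrader and 7242 and 6779.5 after 30 min of washout, when it was 1.51-fold higher. Both washout libraries lay above every DMSO library, which gave 4546 to 4874. Insig1, whose protein holds SREBP-2 in the endoplasmic reticulum, gave 1194 and 1275 before and 1249 and 1305 after washout. Those libraries overlapped, and the difference was 0.05 (SE 0.13, adjusted p = 0.806).

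Hmgcs1, the HMG-CoA synthase of the entry to the mevalonate route, gave 341 and 334 normalised reads at 2 h of degrader and 279.6 and 259 after 30 min of washout. The washout libraries were lower without overlap, yet the change of -0.32 (SE 0.22) had an adjusted p of 0.299 with all libraries and 0.0152 without those that stand apart. Idi1, the isomerase of the first isoprenoids, gave 57.7 and 84.8 before and 108 and 74.1 after, which overlapped. Fdps, which joins isoprenoids to farnesyl diphosphate, gave 789 and 775 before and 582 and 522 after. The difference was -0.50 (SE 0.19) without overlap, with an adjusted p of 0.0623, and 1.06e-05 without the libraries that stand apart.

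The squalene branch split. Fdft1, the squalene synthase, gave 879 and 777 before and 928 and 1020.4 after 30 min of washout, a difference of 0.24 (SE 0.11, adjusted p = 0.121) with no overlap. Sqle, the squalene epoxidase, gave 879 and 908 before and 611 and 678 after. Lss, the lanosterol synthase that closes the sterol rings, gave 1344 and 1249.5 before and 791 and 844 after. For Sqle and Lss both washout libraries also lay below every DMSO library, which gave 798 to 816 and 1103 to 1203.

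Degrader 30 min replicate 3, the library that resembled washout over the genome, did so for these genes too. It gave 224 for Hmgcs1, 513 for Fdps and 755 for Lss, where its mates gave 389 and 435, 841 and 907, and 1384 and 1296. For Srebf2 it gave 6798, and its mates gave 6004 and 6035. Over the dREG sites of the time course, whose columns are all named, it again stood apart, with a mean r of -0.25 with its own group. There 30 min washout replicate 3, whose gene column was not settled, also stood apart from its group, at -0.23. Whether either library is what its label says was not tested.

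**Figure D1:**
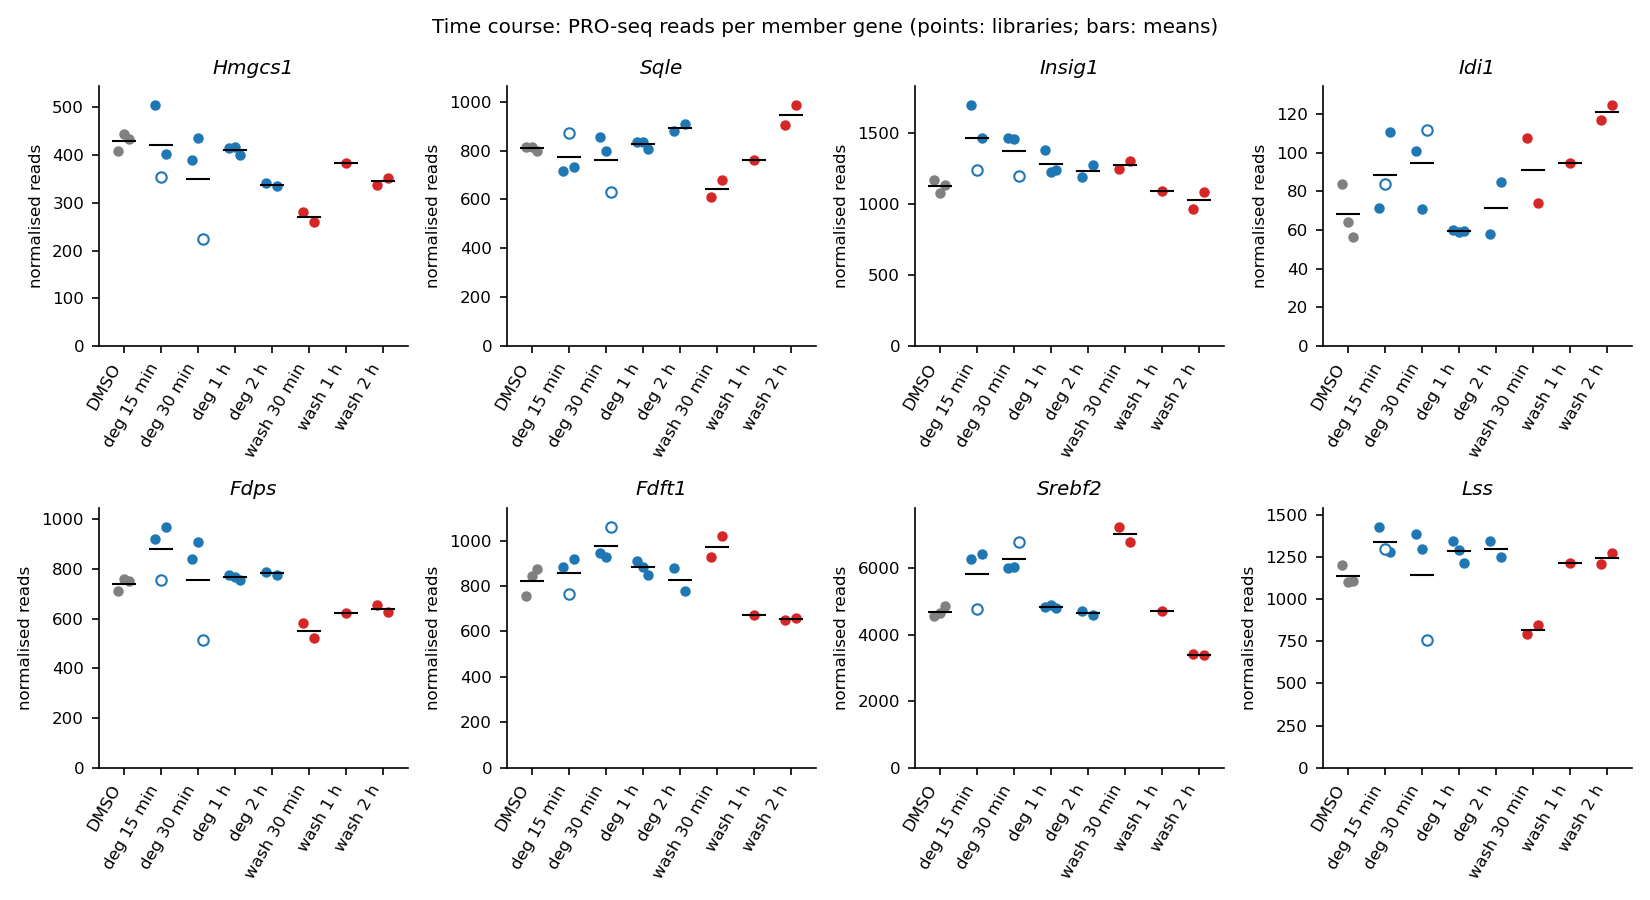
Normalised PRO-seq reads of each of the 8 genes (y axes, from 0) in the libraries of the time course, in the order DMSO (grey), degrader (blue) and washout (red); bars are group means and open points the 2 libraries that stand apart. Lss falls to 791 and 844 at 30 min of washout while Srebf2 reaches 7242 and 6779.5.

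The picture changed with longer washout. At 1 h, with 1 library, none of the 8 genes passed the test against 2 h of degrader (limma; 1 had an unadjusted p under 0.05), where 7.37% of all genes passed. edgeR called none either, and without the libraries that stand apart Fdft1, Fdps and Sqle fell, 3 of 8 beside 35.3% of all genes. The test takes the spread of the lone library from the other groups. Its values were 4714 for Srebf2, 1213 for Lss, 762 for Sqle, 624 for Fdps and 674 for Fdft1. Against 30 min of washout, Srebf2 fell by 0.57 (SE 0.13, adjusted p = 0.0152) and Fdft1 fell by 0.53 (SE 0.13, adjusted p = 0.0227), 2 of 8 beside 13.4% of all genes. Without the libraries that stand apart 5 of 8 passed, beside 44.8%. Leaving out 30 min washout replicate 2, or the libraries with conflicting labels, left none of the 8, and took the calls over all genes from 1706 to 5 and to 156.

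At 2 h of washout Srebf2 gave 3408 and 3385 normalised reads, below all the other libraries of the time course used here. Against 2 h of degrader it fell by 0.45 (SE 0.11, adjusted p = 0.00917). Fdft1, at 650.3 and 657, fell by 0.34 (SE 0.11, adjusted p = 0.0445). These 2 were the members that passed, where 17.3% of all genes did, and 5 passed without the libraries that stand apart, against 43.1% of all genes. Leaving out either library of either group left none of the 8, and 614 to 782 calls over all genes, down from 2198. Idi1, at 117 and 124, was higher than every degrader 2 h and DMSO library, with a difference of 0.78 (SE 0.28, adjusted p = 0.0645) from 2 h of degrader. Lss (1209.7 and 1272), Sqle (904 and 985) and Hmgcs1 (337 and 352) had libraries that overlapped those of 2 h degrader.

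From 30 min to 2 h of washout 4 of the 8 genes changed. Srebf2 fell by 1.04 (SE 0.11, adjusted p = 1.42e-05) and Fdft1 fell by 0.57 (SE 0.11, adjusted p = 0.000906). Lss rose by 0.60 (SE 0.19, adjusted p = 0.0174) and Sqle rose by 0.55 (SE 0.13, adjusted p = 0.00279). These 4 stood beside 45.4% of all genes, and 7 of 8 beside 63.4% without the libraries that stand apart, close to the background in the first fit. Lss was not past the threshold without any 1 of the 4 libraries of these groups, in turn, where the calls over all genes fell from 5773 to between 3521 and 4233.

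Against DMSO, with which every washout group shares the same 3 control libraries, 30 min of washout changed 4 of the 8 genes beside 48.8% of all genes. The count of members was thus close to the background. Hmgcs1 fell by 0.67 (SE 0.21, adjusted p = 0.0146), from 409, 444 and 434 in DMSO to 279.6 and 259. Lss fell by 0.48 (SE 0.17), Sqle fell by 0.33 (SE 0.12) and Srebf2 rose by 0.58 (SE 0.10). Lss and Sqle were lost without any 1 DMSO library or the libraries with conflicting labels, Hmgcs1 and Lss without washout replicate 2, and these 3 without replicate 1. Without the libraries that stand apart 7 of 8 passed, beside 65.3%. At 1 h none of 8 passed (limma; 1 had an unadjusted p under 0.05) beside 28.1% of all genes, nor by edgeR, and 2 did beside 54.2% without the libraries that stand apart. At 2 h 3 of 8 passed beside 38.5%, again close to the background. Idi1 rose by 0.84 (SE 0.25, adjusted p = 0.0165), Fdft1 fell by 0.33 (SE 0.10) and Srebf2 fell by 0.47 (SE 0.10, adjusted p = 0.00164). Without DMSO replicate 3, or either 2 h washout library, Srebf2 alone of these passed, and 6 of 8 passed beside 59.2% without the libraries that stand apart.

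The other 16 genes of cholesterol synthesis, a list made with earlier results of these data known, were read in the same comparisons. At 30 min of washout against 2 h of degrader 5 fell, 1 rose and 10 did not pass, where 24.3% of all genes were called. The median change was -0.29, beside 0.003 for all genes. Without the libraries that stand apart 8 fell and 2 rose, where 51.0% of all genes were called. Mvd, the decarboxylase that makes isopentenyl diphosphate, fell by 1.68 (SE 0.43, adjusted p = 0.017), from 174 and 161 normalised reads to 53.4 and 49.4. Nsdhl, a sterol dehydrogenase, fell by 0.88 (SE 0.24) and Dhcr7, a late reductase of the pathway, fell by 0.77 (SE 0.26). By 2 h of washout Mvd was at 189.5 and 172. Of the 16 genes 1 passed against 2 h of degrader, beside 17.3% of all genes: Ebp, the sterol isomerase, rose by 0.76 (SE 0.19, adjusted p = 0.0139). Without the libraries that stand apart 1 rose and 3 fell at 2 h, beside 43.1% of all genes. From 30 min to 2 h, 6 of the 16 rose and 3 fell, where 45.4% of all genes were called.

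**Figure D2:**
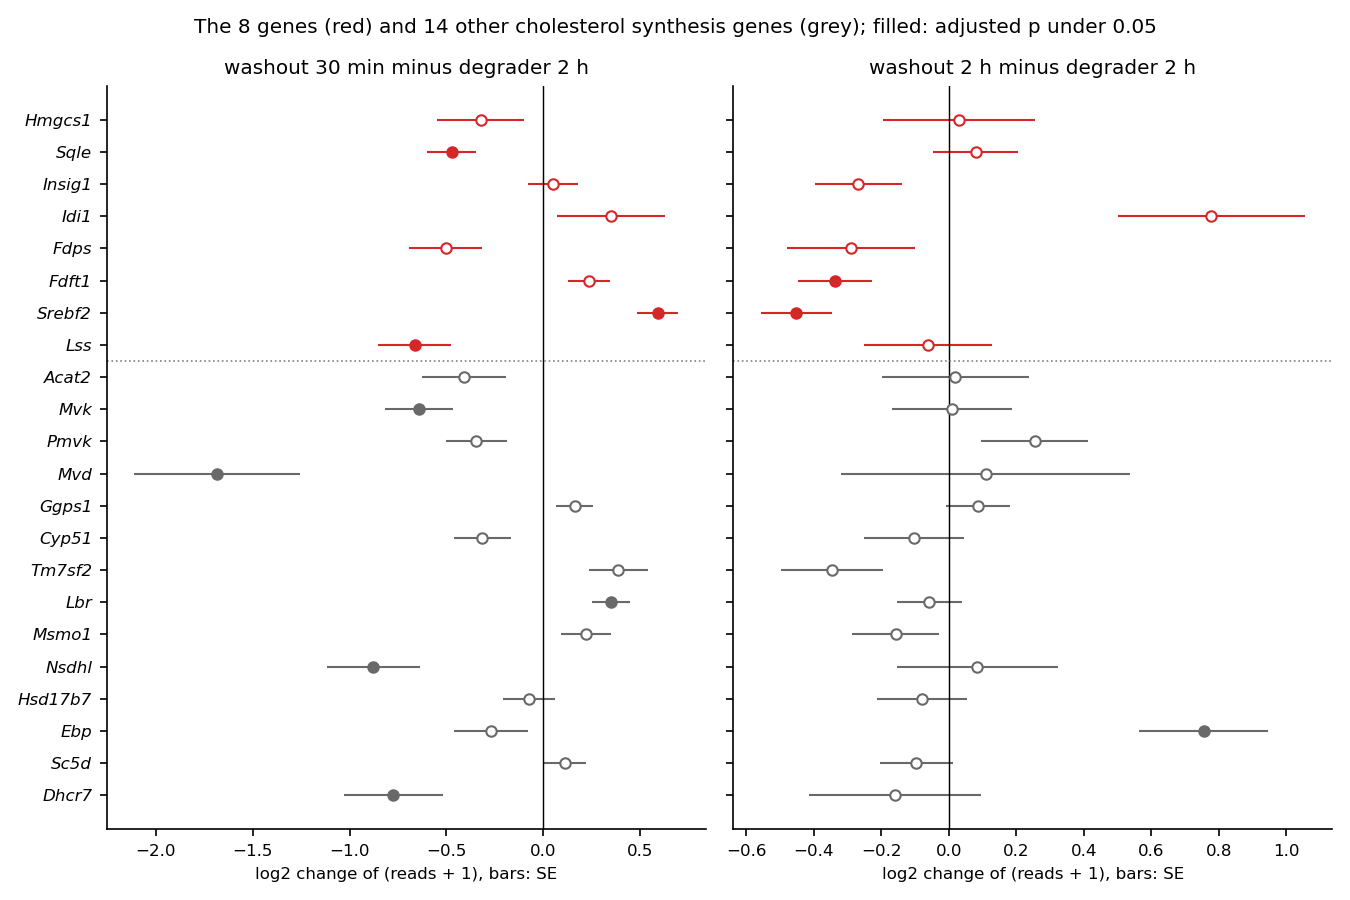
Change of the 8 genes (red) and of 14 other cholesterol synthesis genes (grey) between washout and 2 h of degrader, in log2(normalised reads + 1) with its SE; filled points passed the test. At 30 min Mvd lies lowest, at -1.68, and Srebf2 highest, at 0.59; at 2 h Ebp, at 0.76, and Srebf2 and Fdft1 are the filled points.

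Of 11 genes of sterol sensing and uptake, 1 passed at 30 min of washout against 2 h of degrader, beside 24.3% of all genes. This was Npc1, which exports cholesterol from lysosomes and fell by 0.29. Without the libraries that stand apart 3 of the 11 rose and 4 fell, beside 51.0% of all genes. At 2 h, with all libraries, 3 of the 11 passed, all lower, beside 17.3% of all genes. Without those that stand apart 6 fell, beside 43.1%. Of 6 genes of efflux and storage 1 rose at 30 min, again beside 24.3%: Mylip, which encodes a ubiquitin ligase, by 0.61.

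Lists of genes that respond to serum and nutrients were read in the same comparisons, in which 24.3% of all genes were called at 30 min and 17.3% at 2 h of washout against 2 h of degrader, and 45.4% from 30 min to 2 h. Of 20 tested among 25 serum response genes, 4 rose and 2 fell at 30 min of washout against 2 h of degrader, with Maff, a small bZIP factor, higher by 1.71, Atf3 by 1.40 and Srf by 1.35. Without the libraries that stand apart 8 of the 20 rose and 4 fell at 30 min, beside 51.0% of all genes. From 30 min to 2 h, with all libraries, 9 of the 20 fell and 1 (Myc) rose. Of 14 amino acid response genes, 10 fell at 2 h against 2 h of degrader, among them Asns, the asparagine synthetase, by 0.92. Of 10 fatty acid synthesis genes 5 fell at 2 h, among them Acaca, the acetyl-CoA carboxylase, by 0.37, as did 5 of 10 genes of glucose and hypoxia response, among them Hk2, a hexokinase, by 0.94. The part of medium, serum or nutrients in the changes of the 8 genes was not tested.

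Gene length moved with the change at 2 h of washout. Over 12709 genes with a length, Spearman's rho between length and the change against 2 h of degrader was -0.43 at 2 h, -0.35 at 1 h and -0.05 at 30 min of washout. Genes are not independent replicates, and no p is given. Genes up to 10 kb had a median change of 0.30 at 2 h, and genes of 40 to 80 kb of -0.07. The longest members, Srebf2 (58.1 kb) and Fdft1 (36.5 kb), were the 2 that passed the test at 2 h, both lower. The shortest, Idi1 (6.79 kb), had the highest change. The next shortest, Insig1 (7.25 kb) and Fdps (8.38 kb), went against the trend, at -0.27 and -0.29, and neither passed the test. Srebf2 at -0.45 lay just below the 10th percentile of its length range (-0.43). At 30 min its 0.59 lay above the 90th percentile of that range (0.37), and Lss (25.6 kb) at -0.66 lay below the 10th percentile of genes of 20 to 40 kb (-0.61). The part of length in these changes was not tested.

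**Figure D3:**
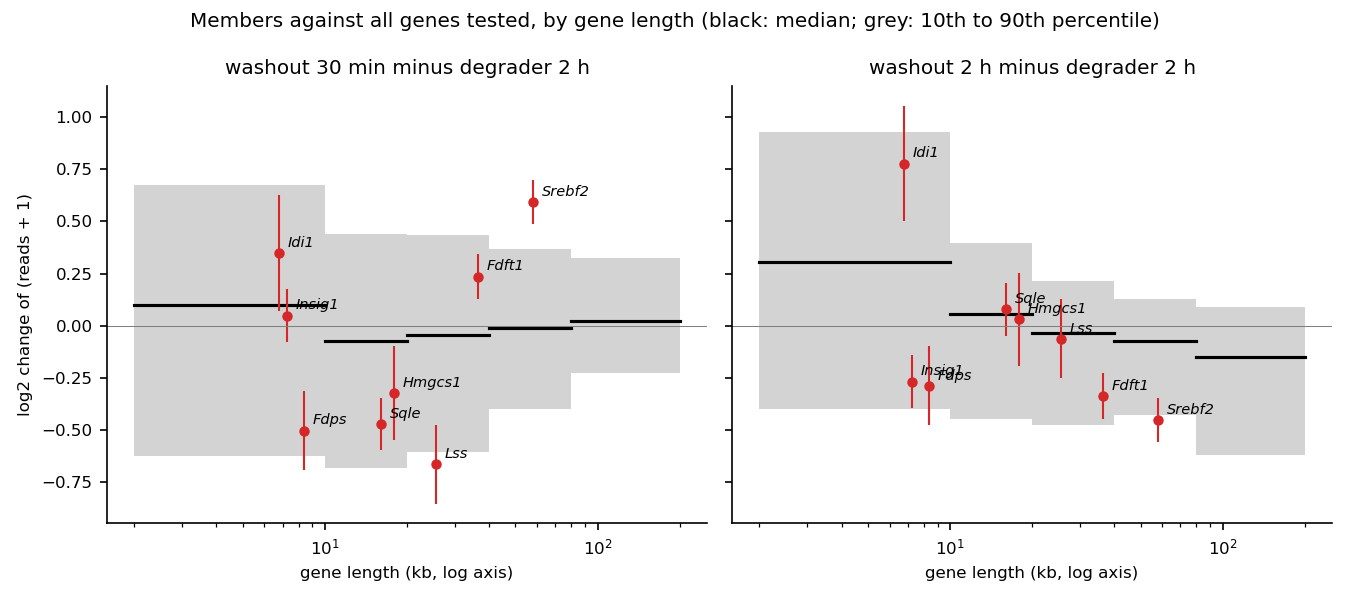
Change of the 8 genes (red, with SE) against gene length on a log axis, over the median (black) and the 10th to 90th percentile (grey) of all genes in 5 ranges of length, at 30 min (left) and 2 h (right) of washout against 2 h of degrader. Srebf2 lies above the grey range at 30 min (0.59) and at its lower edge at 2 h (-0.45).

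Degrader without washout was read in both the time course and the A485 series. In the time course, 15 min of degrader raised 2 of 8, Insig1 by 0.37 (SE 0.10, adjusted p = 0.0423) and Srebf2 by 0.30 (SE 0.09, adjusted p = 0.0457), beside 6.93% of all genes. Without the libraries that stand apart 4 of 8 rose, beside 27.8%, and the changes of Insig1 and Srebf2 were 0.49 and 0.44. Insig1 gave 1696, 1243 and 1465 normalised reads against 1167, 1077 and 1133 in DMSO, and the value of 1243 came from the library that stands apart. Leaving out any library of either group but that one left neither gene past the threshold, with 587 to 780 calls over all genes in place of 881. So did leaving out the libraries with conflicting labels, with 606. At 30 min Srebf2 rose by 0.42 (SE 0.09, adjusted p = 0.00398), 1 of 8 beside 13.9%, and 4 of 8 rose beside 21.1% without the libraries that stand apart. At 1 h and 2 h none of the 8 passed (limma; none had an unadjusted p under 0.05), beside 11.3% and 9.39% of all genes, nor by edgeR. Without the libraries that stand apart 2 of 8 passed at each time, beside 30.2% and 31.1%. Srebf2 was back at 4832 ± 56.1 (SD, n = 3) and 4651 ± 89.8 (n = 2).

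The A485 series repeated the degrader for 15 min, 30 min and 1 h in other libraries, where the lowest mean r of a library with its own group was 0.495. Insig1 rose at all 3 times, from 708, 754 and 719 normalised reads in DMSO to 927, 935 and 939 at 15 min, 986, 961 and 974 at 30 min and 916, 957 and 979.6 at 1 h. No degrader library overlapped DMSO. The changes were 0.36, 0.42 and 0.39 (SE 0.06 each). Srebf2 rose by 0.23 (SE 0.04, adjusted p = 2.1e-05) at 15 min and by 0.12 (SE 0.04, adjusted p = 0.0178) at 30 min, and its 0.07 at 1 h did not pass.

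Enzyme genes passed at the 30 min and 1 h times. Fdps rose by 0.28 (SE 0.10, adjusted p = 0.0372) at 30 min, a call that was lost without any of 5 of the 6 libraries of its groups, in turn. Fdft1 rose by 0.43 (SE 0.07, adjusted p = 9.9e-06) and Sqle by 0.25 (SE 0.07, adjusted p = 0.0117) at 1 h, when Fdft1 gave 941, 979 and 1028 against 701, 726 and 759.9 in DMSO. In all, 2 of 8 genes passed at 15 min beside 16.7% of all genes, 3 of 8 at 30 min beside 20.6% and 3 of 8 at 1 h beside 25.6%. At 30 min 1 of 8 was left without degrader replicate 4 or 6 or DMSO replicate 5. Hmgcs1, Idi1 and Lss passed at none of these times, with changes of -0.07 to 0.24. Of the other 16 synthesis genes, 4 rose and 1 fell at 1 h, with Mvd higher by 0.49 and Dhcr7 by 0.39, and Tm7sf2, a sterol reductase, lower by 0.59. Of 6 genes of sterol efflux and storage, 4 rose at 1 h, led by Abcg1, a cholesterol exporter, by 1.19 (SE 0.05, adjusted p = 6.08e-19).

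Inhibition of p300 and CBP lowered most of the 8 genes within 15 min. A485 for 15 min lowered 7 of 8 beside 55.1% of all genes called, for 30 min 5 of 8 beside 58.1% and for 1 h 6 of 8 beside 62.6%, in every case with no member raised. The shares of all genes count calls in either direction, and the count at 30 min lay close to its share. The members' median changes were -0.40, -0.42 and -0.38, beside medians within 0.01 of 0 for all genes. The 15 min libraries carry the replicate numbers 4 to 6 of the DMSO libraries and those of 30 min and 1 h the numbers 1 to 3, and the labels do not say whether these sets were prepared together.

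Fdps fell at each time, from 529.6, 542 and 549.8 normalised reads in DMSO to 234, 274 and 243 at 15 min, 253 and 253 at 30 min and 233, 293 and 233 at 1 h. Its changes were -1.11, -1.09 and -1.10 (SE 0.10, 0.11 and 0.10), and the differences between times were not tested. Srebf2 fell in steps, from 3968 ± 55.4 in DMSO to 2798 ± 82.0 at 15 min (SD, n = 3), 1973 ± 51.3 at 30 min (n = 2) and 1774 ± 24.9 at 1 h (n = 3). At 1 h it stood at 0.447 times its DMSO level (adjusted p = 1.69e-24). Insig1 fell by 0.29, 0.32 and 0.50 (SE 0.06 each).

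Fdft1 and Sqle were lowest at the first time. Fdft1 fell by 0.71 (SE 0.07) at 15 min, 0.58 (SE 0.08) at 30 min and 0.30 (SE 0.07) at 1 h, and Sqle by 0.77 (SE 0.07), 0.51 (SE 0.08) and 0.47 (SE 0.07). The differences between these times were not tested either. Hmgcs1 fell by 0.22 (SE 0.09, adjusted p = 0.0348) at 15 min, a call lost without A485 replicate 5 or DMSO replicate 5 or 6, and passed at neither later time. Lss fell by 0.18 (SE 0.06) at 15 min and by 0.15 (SE 0.06, adjusted p = 0.0236) at 1 h, the latter lost without A485 replicate 1 or 3 or DMSO replicate 4 or 6. Idi1 passed at no time, with differences of 0.11 to 0.32. Scaling to library totals, which moved the median of all genes by 0.13, 0.20 and 0.22 at the 3 times, turned the 1 h change of Lss to 0.06 (adjusted p = 0.345) and raised that of Hmgcs1 from 0.10 to 0.31 (adjusted p = 0.00252). Under that scaling the 1 h change of Fdft1 was -0.08 (adjusted p = 0.262), while Fdps (-0.89) and Srebf2 (-0.94) kept their calls.

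The other 16 synthesis genes were split under A485, with 6 higher, 5 lower and 5 not passing at 1 h and a median change of -0.02. At that time 62.6% of all genes were called. Lbr, a sterol reductase of the nuclear envelope, fell by 0.70, and Mvk, the mevalonate kinase, rose by 0.59. In sterol sensing and uptake 7 of 11 fell and 3 rose, with Srebf1, which encodes the SREBP of fatty acid synthesis, lower by 1.12. The cholesterol exporter gene Abcg1 fell by 3.38 and Abca1 fell by 2.53.

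The degrader was also given together with A485. Against A485 alone none of 8 passed at 15 min, 30 min or 1 h (limma; 1, 2 and 2 had an unadjusted p under 0.05, and edgeR called none), where 0.881%, 1.81% and 6.90% of all genes did. With the replicate block Sqle passed at 15 min (-0.26, adjusted p = 0.0296), and without A485 1 h replicate 1 Insig1 passed at 1 h (0.20, adjusted p = 0.0402). Whether the degrader acted differently with A485 was tested by subtraction: the degrader's change in the presence of A485 less its change without (an interaction term). It passed for Insig1 at 15 min (-0.31, SE 0.08, adjusted p = 0.017), 1 of 8 beside 5.32% of all genes. It passed for Insig1 (-0.40, SE 0.09, adjusted p = 0.00492) and Srebf2 (-0.27, SE 0.06, adjusted p = 0.00288) at 30 min, 2 of 8 beside 8.20%. At 1 h it passed for Sqle (-0.41, SE 0.11, adjusted p = 0.00886) and Fdft1 (-0.36, SE 0.10, adjusted p = 0.0128), 2 of 8 beside 11.5%. Insig1 at 15 min was lost without A485 replicate 5 or DMSO replicate 4, and Fdft1 at 1 h without replicate 1 of both agents. Each of these genes was among those that the degrader alone had raised at the same time. The same degrader and DMSO libraries enter both tests.

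**Figure D4:**
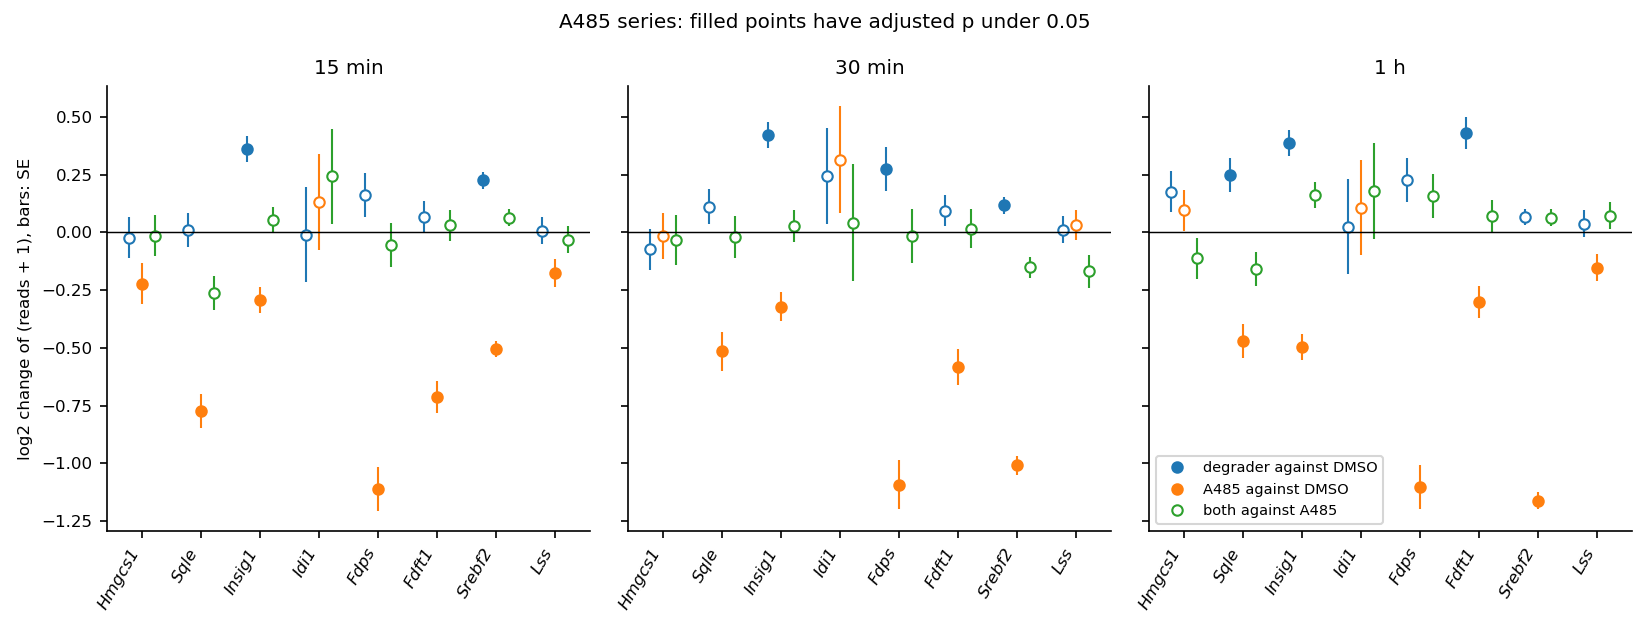
Change of each of the 8 genes in the A485 series, in log2(normalised reads + 1) with its SE, after degrader alone (blue, against DMSO), A485 alone (orange, against DMSO) and both agents (green, against A485) at 15 min, 30 min and 1 h; filled points passed the test. Insig1 lies at 0.36 to 0.42 under degrader, Fdps near -1.1 under A485 and no green point is filled.

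Inhibition of histone deacetylases by LBH589 for 1 h raised 4 of the 8 genes and lowered none. That was no larger a share than the 67.0% of all genes called, higher or lower, in this comparison. Fdft1 rose by 0.94 (SE 0.06, adjusted p = 1.74e-13), from 542, 558 and 554 normalised reads in DMSO to 1116, 925 and 1151. Fdps rose by 0.74 (SE 0.07, adjusted p = 4.47e-11), from 451, 407 and 461 to 765, 703 and 729. Sqle rose by 0.46 (SE 0.06) and Hmgcs1 by 0.42 (SE 0.08), each with no overlap between groups. Srebf2 (0.08, adjusted p = 0.056), Insig1 (-0.12, adjusted p = 0.0611), Idi1 (0.26, adjusted p = 0.171) and Lss (0.02, adjusted p = 0.722) did not pass. The members' median change was 0.34, beside -0.003 for all genes.

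At 30 min of LBH589 5 of 8 passed beside 39.7% of all genes. Fdft1 rose by 0.36 (SE 0.06), Fdps by 0.20 (SE 0.07) and Srebf2 by 0.12 (SE 0.04), while Insig1 fell by 0.16 (SE 0.06) and Lss by 0.12 (SE 0.05). The count went to 2 without LBH589 replicate 2, DMSO replicate 8 or DMSO replicate 9, to 3 without LBH589 replicate 1 or 3, and to 1 with no filter on low values. Of the other 16 synthesis genes 13 rose and 1 fell at 1 h, beside 67.0% of all genes called, with a median of 0.35. Mvd rose by 0.87, Pmvk, the phosphomevalonate kinase, by 0.72, Msmo1, a sterol methyl oxidase, by 0.67 and Ebp by 0.64. Soat1, which esterifies cholesterol for storage, rose by 1.41.

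In the LBH589 washout series, which has no DMSO libraries, 1 of the 8 genes differed between 1 h and 30 min of washout, beside 23.3% of the 12342 genes tested. Insig1 fell by 0.45 (SE 0.13, adjusted p = 0.0369), from 588, 625 and 566 normalised reads to 476, 489 and 352, and this call was lost without any of the 3 libraries of 30 min, in turn. Washout 1 h replicate 3 differed from its mates, with 411 for Sqle and 386 for Fdps against 275 and 219.7, and 212 and 173. Its mean r with them over the most variable genes was 0.04. Without it 3 of 8 passed: Insig1 (-0.30, adjusted p = 0.0127), Lss (-0.30, adjusted p = 0.0245) and Srebf2 (0.22, adjusted p = 0.00527). The calls over all genes rose from 2879 to 4492 in the same refit, a share close to that of the 8 genes. Without replicate 2 of 1 h 3 of 8 also passed, Insig1, Fdps and Sqle, among 3051 calls over all genes. Srebf2 gave 2335, 2218 and 2175 at 30 min and 2544, 2678 and 2394 at 1 h, a difference of 0.18 (SE 0.07, adjusted p = 0.105) with no overlap. Its value at 1 h was thus not lower than at 30 min, whereas in the time course it was. The difference between the 2 series was not tested, since their tables were normalised apart. Of the other 16 synthesis genes 1 passed, Ebp, which rose by 1.29 (SE 0.22, adjusted p = 0.00452).

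In the LBH589 washout series the 30 min libraries held 146 to 180.2 normalised reads of Fdps, 419.6 to 471 of Lss and 28.5 to 33.4 of Mvd. The LBH589 series gave 439.5 ± 28.9 for Fdps, 1084 ± 66.9 for Lss and 3642 ± 95.1 for Srebf2 in DMSO (SD, n = 3). These levels are set side by side across tables and were not compared by a test.

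**Figure D5:**
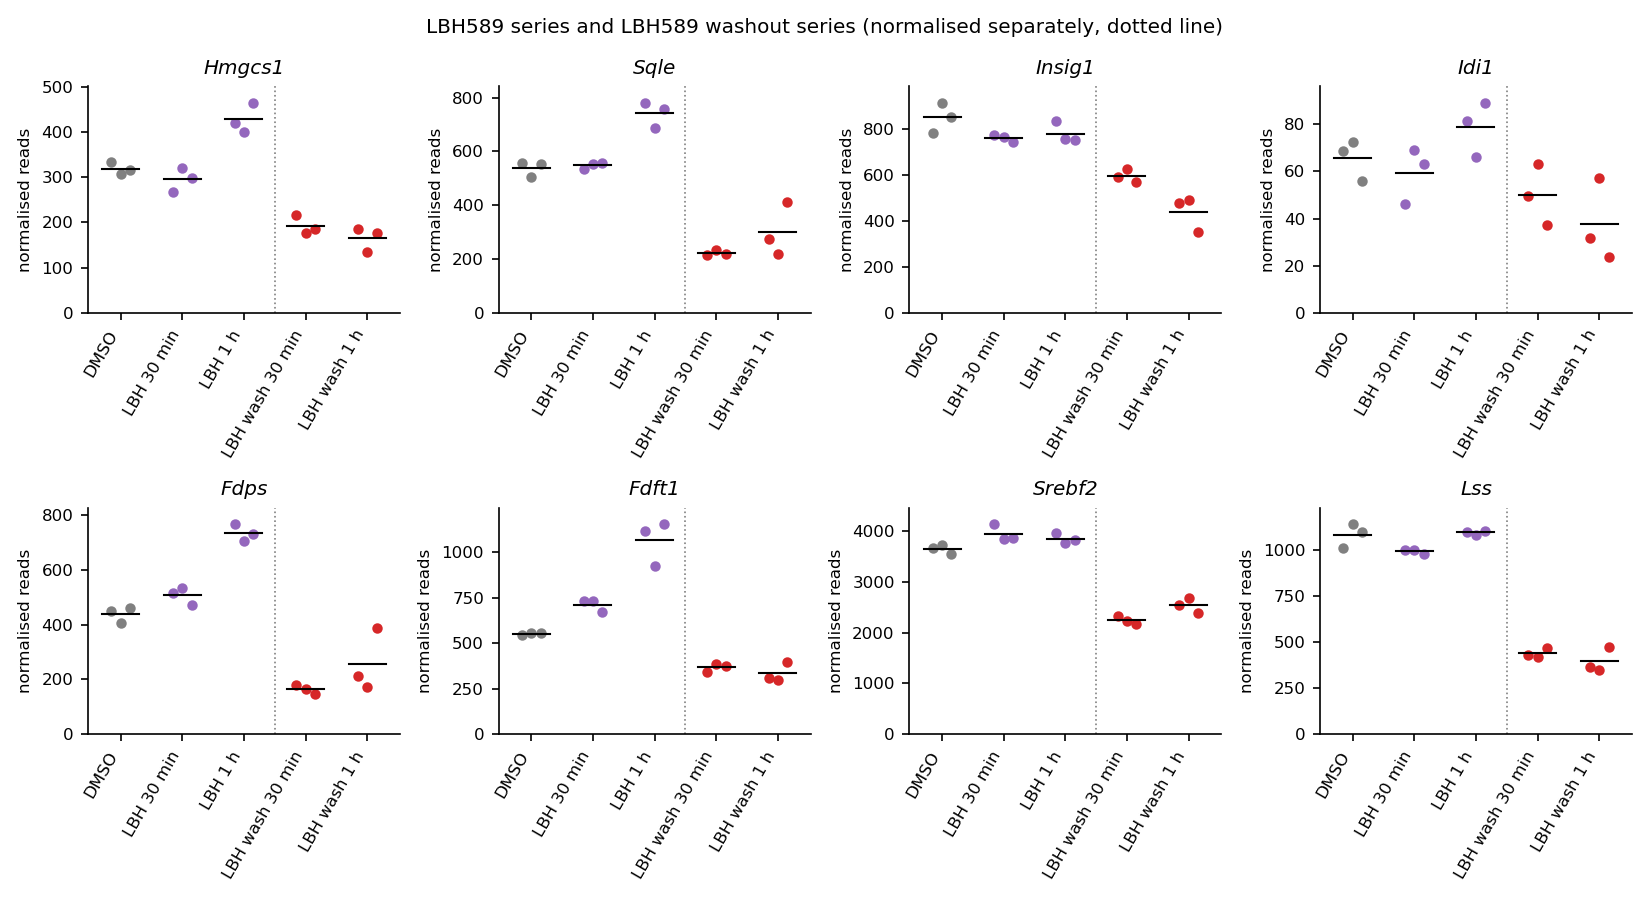
Normalised PRO-seq reads of each of the 8 genes (y axes, from 0) in DMSO (grey), LBH589 (purple) and LBH589 washout (red) libraries; bars are group means, and the dotted line separates 2 tables that were normalised apart. Fdft1 rises from 542, 558 and 554 in DMSO to 1116, 925 and 1151 after 1 h of LBH589.

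Over the 23 groups of the 4 tables, with each gene's group means centred and scaled within its table, the 8 genes did not share 1 profile. The correlation of each gene with the mean of the other 7 was highest for Fdps (r = 0.80), Lss (0.63) and Fdft1 (0.61), followed by Insig1 (0.55), Sqle (0.54), Hmgcs1 (0.45) and Srebf2 (0.25), and it was -0.43 for Idi1. The closest pair was Sqle with Fdps (r = 0.74), then Hmgcs1 with Lss and Sqle with Lss (0.68 each), and the most opposed was Idi1 with Fdps (-0.45). The points share libraries and controls, and these values are a description without a test. The 10 non-members whose profile was most like the mean of the 8, of 12117 genes, were Utp14b (r = 0.89), Fkbp7 (0.89), Glrx (0.87), Phc1 (0.87), Syce3 (0.87), Rusc1 (0.87), Tmem9 (0.87), Abhd15 (0.86), Gm36897 (0.86) and Kctd10 (0.85). None of the 16 other cholesterol synthesis genes was among them.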

How the data were processed

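The signal was PRO-seq reads per gene in 4 deposited gene tables, which per the labels hold DESeq2-normalized counts; the table of dREG sites of the time course served to check column names. Per the submitters' processing notes DESeq2 1.46.0, featureCounts 2.0.1, HOMER, Bowtie2 2.2.2, bedtools and SAMtools 1.16.1 were used, with builds mm39 and dm3; what each did, and whether strand was used, is not given in the sources used here. Values came out as whole reads in 100% of cases (tolerance 0.1). Genes whose mean reached 10 entered limma 3.58.1 (R 4.3.3, eBayes with trend) on log2(value + 1), with all groups of a table in the fit, Benjamini-Hochberg adjustment and a threshold of 0.05. Normalization centres the typical gene, so a change shared by all genes would not show. The fit was also run on simulated counts with known changes and the same spread setting for every gene. No simulated library stood apart from its group, so that run does not show how the fit performs on the time course itself.

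The members and all gene lists were chosen with earlier results of these data known. The text names all 8 members, at most the 4 genes of each list and comparison with the largest change past the threshold (except Mvd levels in other groups, and Cbfa2t3; some genes of the lists are counted but not reported by name here), and the 10 genes most like the members' mean profile. Gene lengths come from RefSeq, GRCm38.p6. In the time course 2 columns whose library was not settled were left out, and 1 column without values was not used. A planned look at dREG sites at the members' start sites was not made, since the sites are in mm39 and the annotation in GRCm38.p6. Alternatives were edgeR 4.0.16 on recovered reads, other pseudocounts (0.5, 10), filters, scalings, column readings, a replicate block and omitted libraries. Intervals from counting do not apply to group comparisons, whose error is the spread between libraries.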

Additional observations from a re-analysis of the deposited data

Results flagged for a closer look

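In the A485 series the response of 4 members to the degrader differed with and without A485 by the test of the difference itself (limma, interaction term: the change with A485 less the change without). The difference was -0.31 for Insig1 at 15 min and -0.40 at 30 min (adjusted p = 0.017 and 0.00492). It was -0.27 for Srebf2 at 30 min (adjusted p = 0.00288). At 1 h it was -0.41 for Sqle and -0.36 for Fdft1 (adjusted p = 0.00886 and 0.0128). Of the 8 genes 1, 2 and 2 passed at 15 min, 30 min and 1 h, beside 5.32%, 8.20% and 11.5% of all genes. Insig1 at 15 min and Fdft1 at 1 h were lost when single libraries were left out. The degrader and DMSO libraries are those of the test of degrader alone.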

How the results depend on the processing

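Counts of the 8 genes past the threshold moved under several alternatives. Leaving out the libraries that stand apart took the counts against 2 h of degrader from 3 to 6 (washout 30 min), 0 to 3 (1 h) and 2 to 5 (2 h), those against DMSO from 4 to 7, 0 to 2 and 3 to 6, and those against washout 30 min from 2 to 5 (1 h) and 4 to 7 (2 h). For degrader it took them from 2 to 4 (15 min), 1 to 4 (30 min), 0 to 2 (1 h) and 0 to 2 (2 h). The share of all genes called rose too. At washout 30 min and 2 h it went from 24.3% and 17.3% to 51.0% and 43.1% against 2 h of degrader. Against DMSO it went from 48.8% and 38.5% to 65.3% and 59.2%. For degrader, in the same order of times, it went from 6.93%, 13.9%, 11.3% and 9.39% to 27.8%, 21.1%, 30.2% and 31.1%. The values that follow are again counts of the 8 genes. Fitting only the groups compared gave 5, 3 and 5 for washout 30 min, 1 h and 2 h against 2 h of degrader, 6 for washout 2 h against DMSO, 4 for washout 1 h against 30 min, 0, 2 and 1 for degrader 15 min, 1 h and 2 h, and 2 for the interaction at 15 min. Without the libraries with conflicting labels washout 30 min against DMSO gave 2, washout 1 h against 30 min 0 and degrader 15 min 0. With all columns read as named washout 2 h against 2 h of degrader gave 1 and degrader 15 min 1; with columns moved by 1 place washout 1 h against DMSO gave 1 and degrader 15 min 1. With no filter, degrader 15 min gave 0, LBH589 washout 0, the interaction at 15 min 2 and LBH589 30 min 1. Scaling to library totals gave 1 for washout 1 h against DMSO, 0 for degrader 15 min, 2 for LBH589 washout, 1 for degrader 30 min in the A485 series and 3 for LBH589 30 min, and turned Lss under A485 for 1 h from -0.15 to 0.063. By edgeR the interaction at 15 min gave 2. Leaving out each replicate gave counts of 0 for washout 30 min and for 2 h against 2 h of degrader, and against DMSO of 1 to 2 (30 min) and 1 to 3 (2 h). It gave 0 to 2 for washout 1 h against 30 min, 0 to 2 and 1 to 3 for degrader 15 and 30 min, 0 to 3 for LBH589 washout, 1 to 3 for degrader 30 min in the A485 series, 0 to 1 for both agents against A485 at 1 h, 0 to 2 and 1 to 3 for the interaction at 15 min and 1 h, and 2 to 5 for LBH589 30 min.

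Whether the replicate numbers pair the libraries was not settled. Deviations of same-numbered libraries from their group means correlated at -0.389 to 0.331 in the time course (median 0.0448) and -0.273 to 0.226 in the A485 series. In the LBH589 washout series they correlated at 0.017 to 0.154. The groups are small, and some hold a library that stands apart. With the replicate block degrader 15 min gave 1 and both agents against A485 at 15 min 1 (Sqle). Of 62 results of single members past the threshold, 33 kept their direction and call in every alternative run, and Lss under A485 for 1 h was the 1 that reversed. Over all genes, fitting only the groups compared took the calls against 2 h of degrader from 3091 to 5937 (washout 30 min), 938 to 4915 (1 h) and 2198 to 6285 (2 h), and those of degrader 30 min from 1764 to 508. Columns moved by 1 place took washout 1 h against 2 h of degrader to 3053. Without the libraries with conflicting labels washout 1 h against 30 min fell from 1706 to 156 calls. Both agents against A485 at 30 min had 228 calls, 103 by edgeR and 69 with the replicate block, and LBH589 washout 2879, or 1593 with no filter. Scaling to library totals changed the percent of calls that were higher from 43.2 to 31.5 (washout 30 min against 2 h of degrader), from 50.7 to 29.7 (washout 30 min against DMSO), from 54.5 to 37.3 (washout 2 h against DMSO), from 62.7 to 32.2 (degrader 30 min), from 57.5 to 41.3 (degrader 1 h, A485 series), from 46.9 to 70.1 (A485 1 h) and from 48.3 to 64.6 (LBH589 1 h). Washout 1 h rested on 1 library, and Idi1 on few reads.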
